A study of Mus musculus with 3 samples.

Results

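Acta2, Myh11, Pdlim3 and Gucy1a1 were described as the contractile genes of muscle, 4 of the 296 genes counted in the sections. They were taken by name, as columns of the count tables, in every segmented cell with at least 10 counts of panel genes. The samples were 3 sagittal sections of whole wild type mouse embryos, 2 at E9.5 from different embryos and 1 at E15.5. RNA was measured by MERFISH, which images single RNA molecules in place and reads each through a barcode, on the Vizgen MERSCOPE platform. Stage was the sole labelled difference between the groups, and none of the embryos carried a transgene or a treatment in the labels.

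Acta2 encodes smooth muscle alpha-actin, a thin-filament protein that is lasting in smooth muscle and appears for a time in developing heart and skeletal muscle. Myh11 encodes the heavy chain of smooth muscle myosin, the motor that pulls on these filaments and a marker of differentiated smooth muscle. Pdlim3 encodes a PDZ and LIM domain protein that binds alpha-actinin at the Z disc of striated muscle and along actin bundles. Gucy1a1 encodes a subunit of soluble guanylyl cyclase, the receptor through which nitric oxide relaxes vascular smooth muscle, and it is also made in some neurons and mesenchyme.

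Because Acta2 and Pdlim3 were the pair most often found in the same cell, relative to their shares, in E9.5 section 2 and at E15.5 with counts as deposited, the 250 bases before their start sites are shown, from RefSeq on GRCm38.p6. Myh11 is not shown. Serum response factor, which with its partners drives many muscle genes, binds CArG boxes. The strict box, CC followed by 6 letters A or T and then GG, was in neither promoter and in 1.47% of 32851 promoters of this length. A looser form, in which 1 of the 6 middle letters may be any base, was in 8.59% of them on either strand, and its matches are in capitals. Acta2 lies on the minus strand at chr19:34255374-34255623 and Pdlim3 on the plus strand at chr8:45885237-45885486.
Acta2: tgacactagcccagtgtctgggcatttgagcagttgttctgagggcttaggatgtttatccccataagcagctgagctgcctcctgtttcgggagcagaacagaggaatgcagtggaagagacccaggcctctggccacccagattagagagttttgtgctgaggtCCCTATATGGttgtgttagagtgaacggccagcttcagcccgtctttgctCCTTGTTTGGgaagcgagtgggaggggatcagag
Pdlim3: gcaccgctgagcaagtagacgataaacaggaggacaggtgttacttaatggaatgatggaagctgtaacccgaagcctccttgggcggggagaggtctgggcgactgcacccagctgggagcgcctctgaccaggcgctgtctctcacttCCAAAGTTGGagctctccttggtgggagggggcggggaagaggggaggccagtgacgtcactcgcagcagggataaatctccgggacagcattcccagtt
Acta2 has 2 such matches, CCCTATATGG at 84 to 75 and CCTTGTTTGG at 34 to 25 bases before the start, and Pdlim3 has CCAAAGTTGG at 100 to 91. E-boxes, CANNTG, were in 66.2% of promoters, with 3 in Acta2 and 2 in Pdlim3. Gucy1a1 had 2 start sites in the table and no looser box in either. A match is a run of letters, and binding was not measured here.

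The sections differed in size. After filtering, 830, 6334 and 195915 cells remained in E9.5 section 1, E9.5 section 2 and the E15.5 section, with 68572, 1034730 and 21227345 counts in all. The median cell held 61, 128 and 84 counts. The 19 blank codes, which were assigned to no gene, averaged 239.5, 149.2 and 159.5 CPM (counts-per-million of all panel counts), which sets the background level in each section. No cell identifier was shared between sections. The counts of a gene also depend on its probes, so levels are compared between cells for 1 gene and not between genes.

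Acta2 was present at 627.1 CPM in E9.5 section 1 (43 counts), at 6975 CPM in E9.5 section 2 (7217 counts) and at 2339 CPM at E15.5 (49659 counts). The E15.5 value lay between the E9.5 values, which stood 11.1-fold apart. Cells with at least 1 Acta2 count made up 4.10% (95% Clopper-Pearson interval 2.85 to 5.68), 13.8% (13.0 to 14.7) and 9.99% (9.86 to 10.1) of the 3 sections. These intervals, and all those below, cover counting error only.

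Myh11 stood at 670.8, 539.3 and 1950 CPM in the same order (46, 558 and 41403 counts), and the E15.5 value was above both E9.5 values. In E9.5 section 1 the highest blank code, at 685.4 CPM, stood above both Myh11 and Acta2. The share of cells with a Myh11 count was 4.94% (3.57 to 6.64), 7.29% (6.67 to 7.96) and 4.68% (4.58 to 4.77). With 3 or more counts as the line the order turned: it was 0 of 830 cells in E9.5 section 1, which allows a share of up to 0.361%, then 0.221% and 0.959%. Few E15.5 cells held most of the message, with 80.8% of Myh11 counts in the 1% of cells richest in it and up to 196 counts in a cell. The same share was 38.6% for Acta2, 35.0% for Pdlim3 and 21.6% for Gucy1a1.

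Pdlim3 was close to absent from E9.5 section 1, where 5 counts (72.9 CPM) lay below the mean blank code and 14 of the 19 blank codes were higher. It reached 1156 CPM (1196 counts) in E9.5 section 2 and 2430 CPM (51592 counts) at E15.5, in 8.23% (7.56 to 8.93) and 10.8% (10.6 to 10.9) of cells. Gucy1a1 stood at 1079, 1389 and 2377 CPM (74, 1437 and 50448 counts), in 7.47% (5.78 to 9.47), 14.3% (13.4 to 15.1) and 16.3% (16.2 to 16.5) of cells. Both genes were highest at E15.5 and their E9.5 sections did not reach that level.

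Shares of cells depend on depth, so cells were also thinned to 50 counts each, which left 494, 5073 and 136001 cells. The share with Acta2 was then 2.02%, 10.3% and 7.02% in E9.5 section 1, E9.5 section 2 and the E15.5 section. For Myh11 it was 3.64%, 2.70% and 3.08%, for Pdlim3 0.202%, 2.80% and 7.53% and for Gucy1a1 5.26%, 5.05% and 10.04%. At equal depth Pdlim3 and Gucy1a1 were found in a larger share of E15.5 cells than in either E9.5 section, and Acta2 and Myh11 lay between the E9.5 sections. For Myh11 the interval of E9.5 section 1 (2.17 to 5.70, on 18 cells) held both other values, so its order was not resolved.

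Stage was tested on counts summed per section, because cells of 1 section are not replicates. With edgeR's quasi-likelihood test and Benjamini-Hochberg adjustment over the panel, 28 of 296 genes were higher at E15.5 (9.46%) and 16 were lower (5.41%), and none of the 4 contractile genes was among them. The log2 difference, E15.5 minus E9.5, was -0.71 ± 0.79 (SE) for Acta2, with an adjusted p of 0.666 from edgeR. It was 1.71 ± 0.98 for Myh11 (edgeR, adjusted p = 0.274), 1.93 ± 0.95 for Pdlim3 (edgeR, adjusted p = 0.182) and 0.95 ± 0.91 for Gucy1a1 (edgeR, adjusted p = 0.581). By size alone, at least 2-fold against each E9.5 section, 47 genes were higher at E15.5 (15.9%) and 46 were lower. Myh11 was 2.91-fold and 3.62-fold above the E9.5 sections, and Pdlim3 was 2.10-fold above section 2 and 33.3-fold above section 1, where its level rests on 5 counts. Gucy1a1 was 2.20-fold and 1.71-fold above them. Acta2 was 3.73-fold above section 1 and 2.98-fold below section 2, so its direction was set by the E9.5 section chosen. The spread in this test comes from the E9.5 pair alone, and permuting 3 sections exactly gives no p under 0.333. DESeq2 called Myh11 higher at E15.5 (log2 difference 1.78, adjusted p = 0.002354). Section 1 held no cell of the heart-like cluster described next, and the part of this difference in tissue content in the stage values was not tested.

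Other genes of vessel walls, matrix and contraction were read from a list of 24, of which 14 were in the panel. Tagln, Cnn1, Actg2, Des, Myocd and Srf of the list were not in it. The 14 held no gene of the contractile apparatus and are called wall and matrix genes below. By edgeR, 3 of the 14 were higher at E15.5 and 0 were lower, against 28 higher and 16 lower of the 296 panel genes. At an unadjusted p under 0.05 edgeR gave 70 panel genes in either direction. DESeq2 called 46 panel genes higher and 46 lower. The 3 were Lox, which crosslinks elastin and collagen (log2 difference 2.91 ± 0.96, edgeR adjusted p = 0.0265), Rgs4, a damper of G protein signalling (2.66 ± 0.95, edgeR adjusted p = 0.0426), and Mgp, matrix Gla protein (3.01 ± 0.97, edgeR adjusted p = 0.0264). Eln, elastin, was 4.77-fold and 4.997-fold above the E9.5 sections, and Pdgfrb, the mural receptor for platelet-derived growth factor B, was 3.35-fold and 4.41-fold below them; neither passed the edgeR test. The median log2 difference of the 14 was 0.59, against -0.15 over all genes tested. These are values of whole sections and do not place a gene in vessel walls. In the E15.5 vascular subcluster described below, Rgs4 was 0.536-fold and Lox 0.525-fold the other cells, and Mgp was 2.01-fold.

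At E9.5 a heart-like cluster of 1 section held most counts of Acta2 and Pdlim3. Cells were clustered on the panel without the 4 contractile genes, so their own counts did not place them. In E9.5 section 2, 385 cells formed a heart-like cluster led by Tbx20, a cardiac T-box factor, Prox1 and Casz1. Gata4 and Gata5, GATA factors of heart and foregut, were 3.96-fold and 2.58-fold higher there than in the other cells of the section.

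Acta2 stood at 46772 CPM in these heart-like cells against 1688 CPM in the other cells, 27.7-fold higher (95% interval 26.2 to 29.3). It was detected in 97.1% of them (94.9 to 98.6), and they held 78.6% of the section's Acta2 counts. After each cell was thinned to 50 counts the share was 87.2%, against 4.48% of other cells. Pdlim3 was 10.6-fold higher (9.42 to 11.9), at 5761 CPM, with 58.4% of its counts in the cluster. Gucy1a1 was 4.53-fold higher (4.07 to 5.05), at 4451 CPM, with 37.6% of its counts. Myh11, at 939.6 CPM against 486.1 CPM, was 1.93-fold higher (1.56 to 2.38), below the 2-fold line used to call a gene raised.

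The heart-like cells of E9.5 section 2 lay together, from 697.3 to 1010 µm in x and from 1754 to 2088 µm in y for all but their outermost 2% on each side. A rule that used place and not clusters, a local share of Tbx20 and of Gata4 of at least 3000 CPM within 60 µm, gave 1234 cells with 383 of the 385. Acta2 stood at 22381 CPM inside that area and 602.5 CPM outside it, and Pdlim3 at 3567 and 158.5 CPM. A second heart-like cluster, led by Gata5 and Tbx20 with 195 cells, held Acta2 at 17331 CPM, in 51.8% of its cells. Pdlim3 was also raised in an endothelial-like cluster led by Cdh5 and Pecam1, at 3300 CPM, and Gucy1a1 in another heart-like cluster, 226 cells led by Gata4 and Asb4, at 3675 CPM. In that cluster Acta2 stood at 1311 CPM and Pdlim3 at 406.2 CPM, both below the level in the other cells, so not every heart-like cluster was rich in them. Myh11 had no strong source at E9.5, though it passed the line for raised in 2 clusters, taken over both E9.5 sections. The cluster led by Stmn2 and Spint2 stood at 1764 CPM (3.45-fold, 2.57 to 4.55) on 56 counts. A mural-like cluster led by Sfrp2 and Ctsw stood at 1173 CPM (2.30-fold, 1.77 to 2.94) on 72 counts, with Acta2 at 293.3 CPM. The other E9.5 clusters named mural-like held at most 23 Myh11 counts each.

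**Figure D1:**
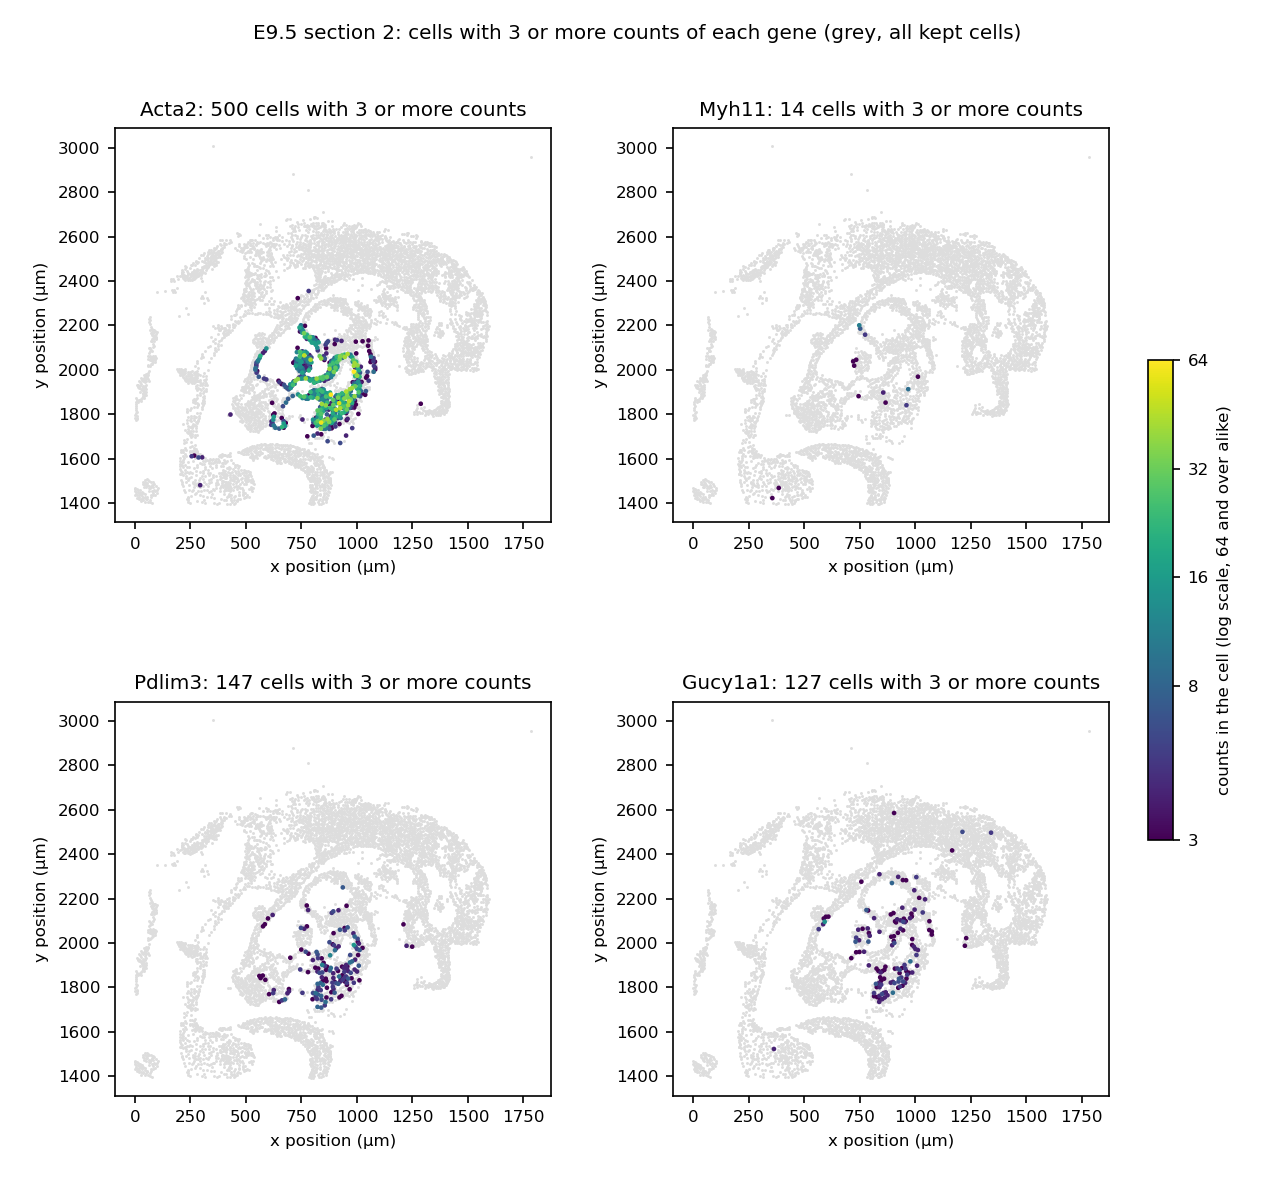
Position of each kept cell of E9.5 section 2 (x and y in µm, grey) with cells holding 3 or more counts of each gene coloured by their count on a log scale. The 500 Acta2 cells and 147 Pdlim3 cells gather in 1 area, the 127 Gucy1a1 cells lie there and in other places, and 14 cells reach 3 counts of Myh11.

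At E15.5 the 4 genes parted between sources. Most Myh11 counts lay in 1 Foxf1-rich area, most Acta2 and Pdlim3 counts lay in a large cluster nearly free of Myh11, and Gucy1a1 was spread over mural-like, Foxf1-rich and other cells. Which clusters serve as sources was decided after their values were seen, and the levels in them are a description of 1 section with no test. In neuron-like cells, which should lack the contractile apparatus, the background was low for 3 of the genes. The 2 largest neuron-like clusters (18506 and 16472 cells, median depth 90 and 63 counts) held Acta2 at 32.6 and 46.9 CPM, in 0.346% and 0.370% of cells, Myh11 at 175.5 and 140.0 CPM, and Pdlim3 at 210.6 and 259.2 CPM. Gucy1a1, by contrast, stood at 3089 and 2006 CPM there, in 21.3% and 12.5% of cells, so its level outside muscle was well above the blank codes.

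**Figure D2:**
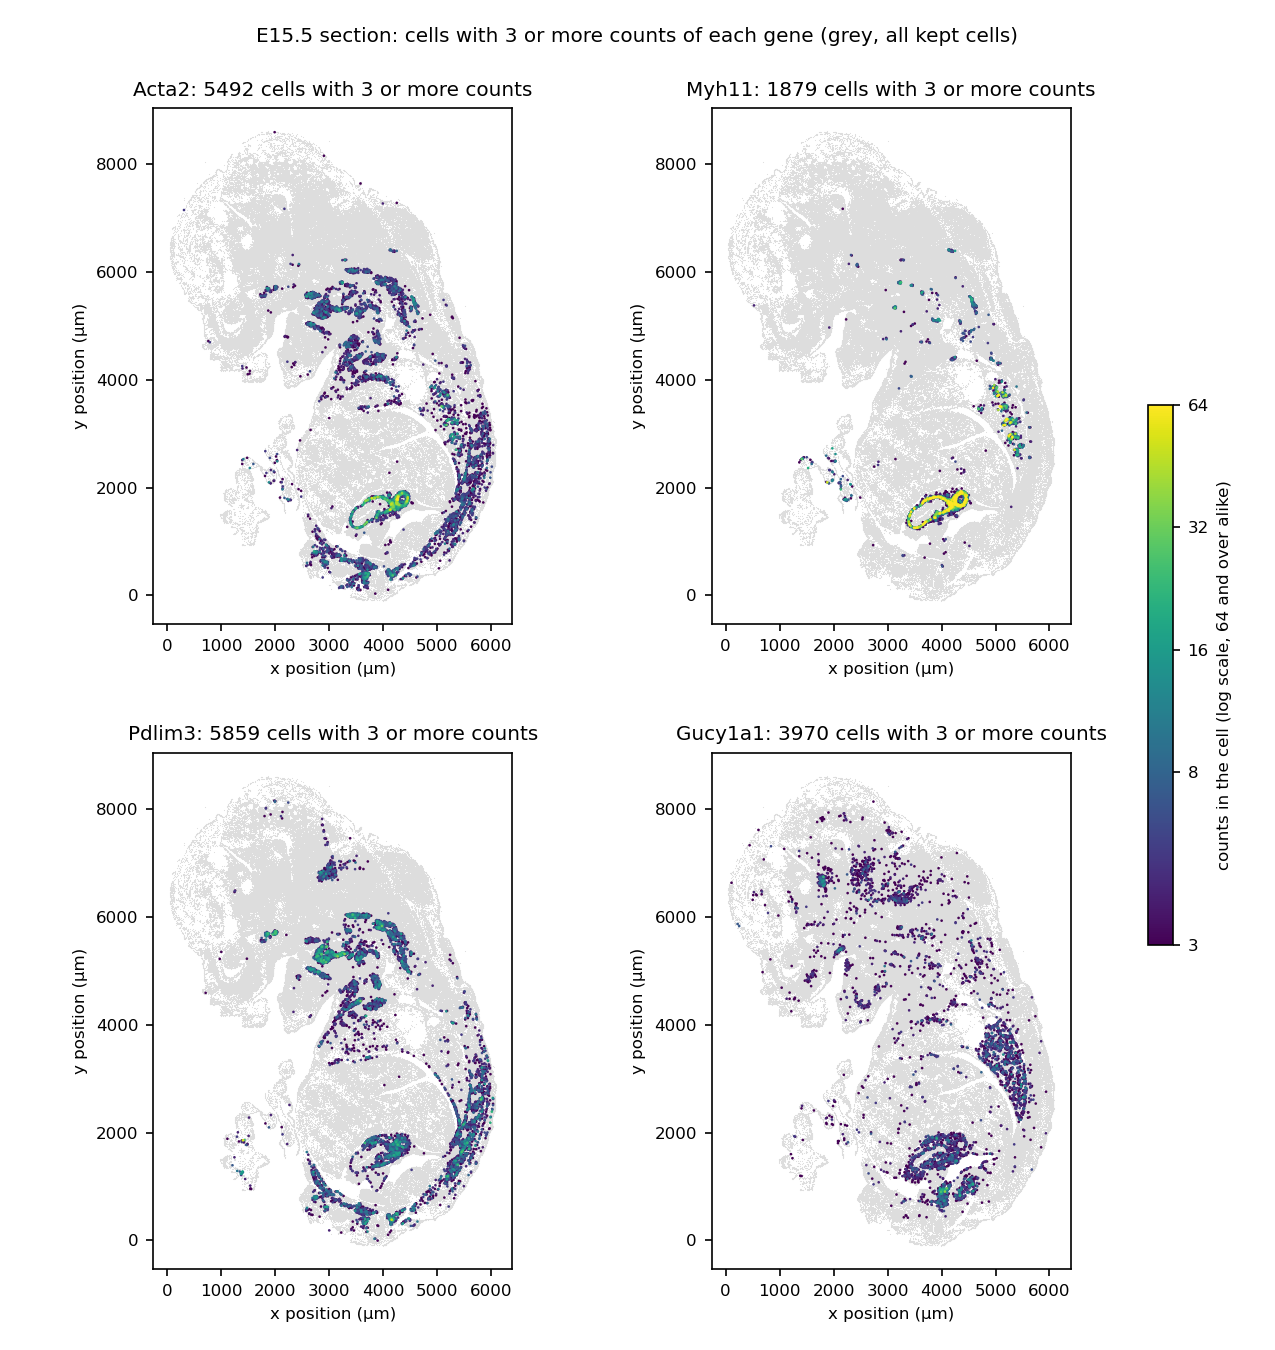
Position of each kept cell of the E15.5 section (x and y in µm, grey) with cells holding 3 or more counts of each gene coloured by their count on a log scale. The 1879 Myh11 cells draw a closed ring around x 3989 and y 1620 and a chain of small groups around x 5232, the 5492 Acta2 and 5859 Pdlim3 cells add cells over much of the section, and the 3970 Gucy1a1 cells are scattered.

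Myh11 was highest in a subcluster of 505 cells led by Foxf1, the forkhead factor of visceral mesoderm, with Sparcl1 and Gata4. Foxf1 was 11.5-fold, Gata4 5.51-fold and Hand2 3.89-fold higher there than in the other cells. It reached too few markers of 1 class for a name and is called the Foxf1/Gata4 subcluster. All 4 contractile genes were raised in it. Myh11 stood at 180110 CPM against 1089 CPM elsewhere, 165-fold higher (162 to 169). It was found in 92.1% of the cells (89.4 to 94.3), with a median of 30 and a maximum of 196 counts per cell, and these cells held 44.4% of all Myh11 counts of the section. Acta2 was 33.1-fold higher (32.2 to 33.9) at 67031 CPM, Pdlim3 7.20-fold (6.86 to 7.55) at 16988 CPM and Gucy1a1 2.39-fold (2.20 to 2.59) at 5640 CPM. Endothelial markers were low in it: their 5 panel genes summed to 2360 CPM against 7347 CPM elsewhere. Of the 14 wall and matrix genes, 2 were at least 2-fold higher, the channel subunit Kcnj8 and the pericyte gene Rgs5, and 4 were at least 2-fold lower. Over the panel 20 of 296 genes were at least 2-fold higher. The median fold over all panel genes was 0.545, against 0.818 for the list, and the panel genes at least 2-fold lower were not counted. Myh11 and Acta2 took a large share of the counts of these cells, which lowers the CPM of other genes in them.

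Another Foxf1-rich source was led by Gata5 (31.2-fold), Foxf1 (12.6-fold) and Ednra, the endothelin receptor A (9.93-fold), in 3010 cells. All 5 endothelial markers of the panel were at least 2-fold higher in it as well, so it is called the Gata5/Foxf1 subcluster by its leading genes and not by a tissue. Myh11 was 6.44-fold higher (6.23 to 6.64) at 11463 CPM, Acta2 3.003-fold (2.88 to 3.13) at 6788 CPM and Gucy1a1 6.21-fold (6.03 to 6.39) at 13517 CPM. Pdlim3 was lower than elsewhere, at 1029 against 2455 CPM (0.419-fold, 0.378 to 0.464). Myh11 was uneven among these cells: 25.2% held a count, the 90th percentile was 2 counts and the maximum 121. Gucy1a1 was broad, in 67.1% of them. In the 913 cells with no endothelial count the fold for Myh11 was 14.4 and that for Acta2 5.40. Of the 14 wall and matrix genes, 7 were at least 2-fold higher: Ednra, Mgp, Heyl, Pdgfrb, Lox, Eln and Rgs5. Another 2 were at least 2-fold lower, and over the panel 52 of 296 genes were at least 2-fold higher. The median fold was 1.75 for the list and 1.04 over all panel genes, and lowered panel genes were not counted.

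The vascular source was a mural-like subcluster of 1499 cells. It was led by Rgs5 (15.1-fold) and the connexin Gja4, with the Notch target Heyl 14.8-fold, Kcnj8 6.74-fold and Pdgfrb 5.22-fold higher. Gucy1a1 was 5.04-fold higher (4.84 to 5.24), at 11473 CPM and in 65.4% of cells. Myh11 was 5.86-fold higher (5.63 to 6.11) at 10869 CPM, in 43.5% of cells. Acta2 was 3.53-fold higher (3.37 to 3.70) at 8036 CPM, in 44.1% of cells. Pdlim3 stood at 919.6 CPM against 2447 CPM elsewhere, 0.376-fold (0.327 to 0.430). Of the 14 wall and matrix genes, 11 were at least 2-fold higher, against 47 of 296 over the panel. Several of the 11, among them Rgs5, Heyl, Kcnj8 and Pdgfrb, are mural markers that gave the subcluster its name, so this count describes the naming. Endothelial counts were mixed into these cells, 27558 CPM over the 5 markers against 7103 CPM elsewhere. In the 360 cells without any, Myh11 was 9.24-fold and Acta2 4.91-fold higher.

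Set side by side, the vascular and Gata5/Foxf1 subclusters had near levels of Myh11 (ratio 0.948, 0.902 to 0.997) and Acta2 (1.18, 1.11 to 1.26), and Pdlim3 did not differ between them beyond counting error (0.893, 0.751 to 1.06). The Foxf1/Gata4 subcluster exceeded the vascular one 16.6-fold in Myh11 (15.9 to 17.3), 8.34-fold in Acta2 (7.92 to 8.79) and 18.5-fold in Pdlim3 (16 to 21.4), while Gucy1a1 was 2.03-fold higher in the vascular cells (1.86 to 2.23). CPM is a share of counts, so the high Myh11 share in the Foxf1/Gata4 cells lowers the CPM of other genes there. Mean Gucy1a1 counts per cell were 1.75 in the vascular and 1.14 in the Foxf1/Gata4 cells. A brain-vessel type cluster led by Cldn5, Slco1c1 and Rgs5, with 1805 cells, held Acta2, Myh11 and Pdlim3 at 303.4, 234.7 and 246.8 CPM, each well below the section's mean, and Gucy1a1 at 3317 CPM.

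Most Acta2 and Pdlim3 counts lay in a cluster of 16401 cells led by Gja5, Cdkn1a and Igfbp3. The panel held 1 of 25 skeletal muscle markers, Tcf15, at 393.5 CPM in the cluster against 234.0 CPM elsewhere, so the cluster could not be named from markers and is called the Gja5/Cdkn1a cluster. Tcf15 was higher still in the vascular subcluster, at 954.6 CPM, and in the Gata5/Foxf1 subcluster, at 466.2 CPM. Pdlim3 was 10.5-fold higher in it (10.3 to 10.7), at 11622 CPM, and Acta2 7.14-fold (7.02 to 7.27), at 9419 CPM. The cluster held 60.2% of all Pdlim3 counts and 50.7% of all Acta2 counts of the section. Myh11 and Gucy1a1 were lower than elsewhere, at 284.3 CPM (0.130-fold, 0.121 to 0.139) and 894.0 CPM (0.345-fold, 0.331 to 0.360). Of the 14 wall and matrix genes, Heyl was raised (2.62-fold) and 11 were at least 2-fold lower. The median fold over all panel genes was also low, 0.611, against 0.411 for the list, and 13 of 296 panel genes were at least 2-fold higher. The panel genes at least 2-fold lower were not counted, so the 11 cannot be set against a panel share.

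The 4 subclusters of the Gja5/Cdkn1a cluster had different levels. Pdlim3 stood at 21455 CPM in the subcluster led by Gja5, a gap junction protein, and at 17842 CPM in that led by Cdkn1a, the cell cycle inhibitor p21. It stood at 6220 CPM in the subcluster richest in mitotic genes and 5647 CPM in the last. Acta2 followed the same split, with 14533 and 13703 CPM against 6743 and 4970 CPM. Myh11 was at most 382.6 CPM in any of them. Position changed the levels less: Pdlim3 was 13518 CPM in cells of the cluster above a y of 4500 µm and 10354 CPM below it, and Acta2 9131 and 9612 CPM.

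The heart-like subcluster of the E15.5 section, 3037 cells with Tbx20 29.3-fold and Gata4 21.6-fold higher, held Acta2 at 7455 CPM (3.27-fold, 3.12 to 3.43) and Pdlim3 at 4948 CPM (2.06-fold, 1.94 to 2.18). Gucy1a1 was 1.80-fold higher (1.69 to 1.92) and Myh11 was lower than elsewhere, at 507.2 CPM (0.258-fold, 0.214 to 0.308). Per cell volume in place of per panel count, Pdlim3 was 1.32-fold and no longer passed 2-fold. Compared with the heart-like cells of E9.5 section 2, whose median depth was 268 counts against 68 here, Acta2 was 6.27-fold lower (5.95 to 6.62) and Myh11 1.85-fold lower (1.42 to 2.41). Pdlim3 was 1.16-fold lower (1.06 to 1.28), and the interval for Gucy1a1 (1.05-fold, 0.942 to 1.16) included 1. The 5 endothelial markers summed to 13833 CPM in the E15.5 heart-like cells, above the other cells of their section, and to 2027 CPM in those of E9.5, below them, and the part of this in the ratios was not tested. These ratios set 1 section against 1 section, so the spread between embryos is not in them.

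**Figure D3:**
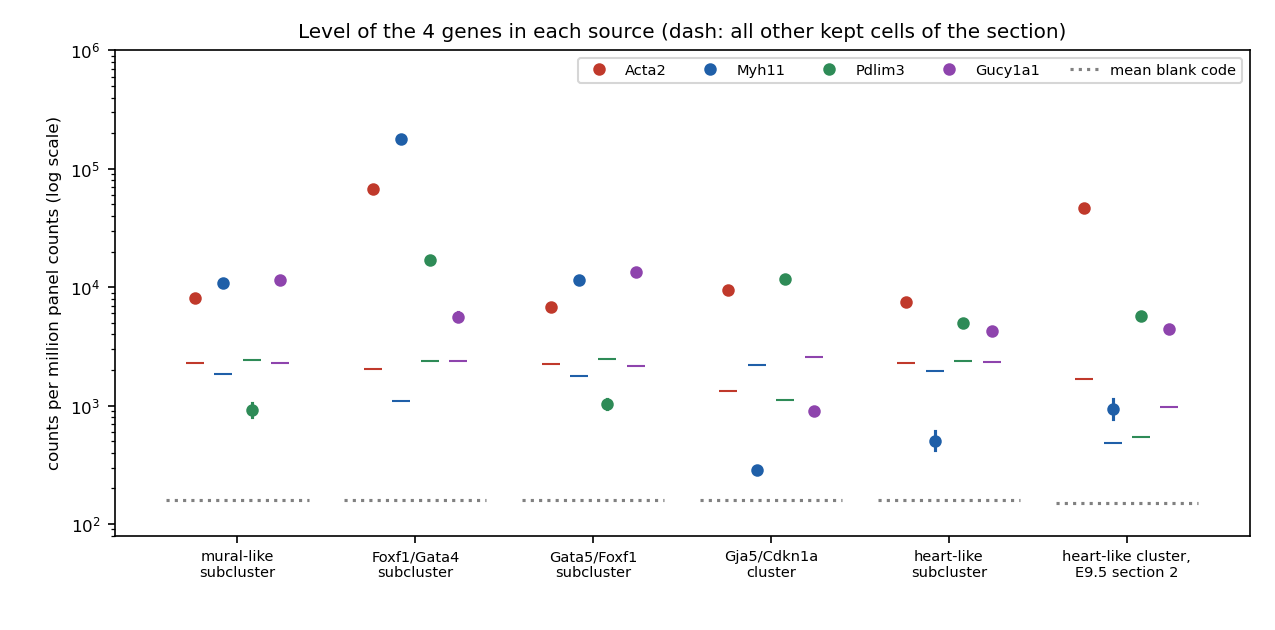
Level of each gene (CPM, log axis) in 5 sources of the E15.5 section and in the E9.5 heart-like cluster; points are the level in the source with its 95% Poisson interval, dashes the level in all other kept cells of the section, and dotted lines the mean blank code. Myh11 spans 284.3 to 180110 CPM over the E15.5 sources, and Pdlim3 lies under its dash in the mural-like and Gata5/Foxf1 subclusters.

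Myh11 and Gucy1a1 stood in a different order over these 5 sources than Pdlim3. From highest to lowest, Myh11 ran from the Foxf1/Gata4 subcluster through the Gata5/Foxf1 and vascular subclusters, whose ratio is near 1, to the heart-like cells and the Gja5/Cdkn1a cluster. Pdlim3 ran from the Foxf1/Gata4 subcluster, 1.46-fold above the Gja5/Cdkn1a cluster (1.39 to 1.53), through the heart-like cells to the Gata5/Foxf1 and vascular subclusters, which did not differ beyond counting error. Acta2 was highest in the Foxf1/Gata4 subcluster, and its other 4 levels lay between 6788 and 9419 CPM. Gucy1a1 was highest in the Gata5/Foxf1 subcluster, 1.18-fold above the vascular one (1.12 to 1.24), and lowest in the Gja5/Cdkn1a cluster. These levels rest on how the sources were drawn. At a clustering resolution of 0.5 the vascular, both Foxf1-rich and heart-like sources fell into 1 cluster of 17886 cells, in which Myh11 was 15.98-fold and Pdlim3 0.929-fold the other cells. A gate on panel markers within the cell caught at most 49.4% of a source, and no source then had more than 1 raised gene.

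Other groups also held these genes. A subcluster of 2318 cells was led by Kcnj8, Sparcl1, Npr3 and Foxf1. Myh11 was 9.06-fold higher in it than in the other cells, at 15500 CPM, and Pdlim3 3.17-fold, at 7425 CPM. Gucy1a1 was 3.27-fold and Acta2 2.86-fold higher, and the share of panel genes raised there was not counted. This subcluster had 3 heart, 4 mural and 2 visceral markers raised and is kept apart from the heart-like subcluster. It held 13.8% of the section's Myh11 counts, more than the Gata5/Foxf1 subcluster with 10.3%. A cluster of 1162 cells led by Crabp1, Nt5e and Dcn had Acta2 2.19-fold, Myh11 3.58-fold and Pdlim3 2.75-fold higher. Pdlim3 reached 4490 CPM in a cluster led by the glial genes Fabp7 and Slc1a3, where Acta2 stood at 54.5 CPM. Gucy1a1 was the one gene of the 4 raised in a subcluster led by Foxf1, Tmem100 and Procr (17989 CPM) and in clusters led by Slco1c1 (5125 CPM) and by Tbx20 and Casz1 (4767 CPM).

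Over the 31 clusters of the E15.5 section, the panel gene whose log2(CPM + 10) ran most like Acta2 was Ednra (Pearson r = 0.84), followed by Dcn and Eln (0.73 each). For Myh11 it was Cd248 (0.75), then Mfap2 (0.72) and Hand2 (0.69). For Pdlim3 it was Tmem100 (0.73), then Mfap2 (0.70) and Gja5 (0.62), and for Gucy1a1 Tbx20 (0.56), Ptprb (0.54) and Pecam1 (0.53). Over the 26 E9.5 clusters Acta2 ran most like Pdlim3 (0.74), Gucy1a1 (0.73) and Tbx20 (0.71), and Pdlim3 like Unc5b (0.79), Tbx20 and Gja5 (0.78 each). Myh11 ran with Slc2a1 (0.64), Cyba (0.60) and Slc7a1 (0.58) and with Acta2 at 0.02, and Gucy1a1 with Cenpa (0.77), Acta2 and Phlda3 (0.73 each). Clusters of a stage share sections and depth, so these values describe the panel and carry no test.

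Position separated the sources at E15.5. Areas were drawn from a local share of Foxf1 of at least 1500 CPM within 60 µm, with no use of the 4 genes. One, also rich in Gata4 and Kcnj8, held 5643 cells around x 3989 and y 1620 µm, with 66.3% of the section's Myh11 counts, 21.7% of its Acta2, 12.5% of its Pdlim3 and 11.6% of its Gucy1a1. Another, rich in Gata5 and Ednra, held 5762 cells around x 5232 and y 3267 µm, with 14.1% of the Myh11 and 12.7% of the Gucy1a1 counts. The next, rich in Prrx1 and Sfrp2, held 7123 cells around x 2240 and y 5069 µm and had Myh11 at 264.1, Acta2 at 209.7 and Pdlim3 at 299.7 CPM, so a high share of Foxf1 did not by itself go with the contractile genes. A smaller area of 1624 cells had Myh11 at 289.7 CPM, and the smallest, 735 cells rich in Nkx2-3, had it at 10667 CPM.

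The areas and the subclusters were drawn from some of the same genes, so their overlap is partly set by the rule. Of the Foxf1/Gata4 subcluster 91.7% of cells lay in the Foxf1/Gata4 area, and 89.97% of the Gata5/Foxf1 subcluster lay in the Foxf1/Gata5 area. The area of high local Tbx20 and Gata4, 3744 cells, held 80.2% of the heart-like cells, with Acta2 at 7153, Pdlim3 at 5119, Gucy1a1 at 4780 and Myh11 at 212.7 CPM. Outside the Foxf1/Gata4, Foxf1/Gata5 and heart areas lay 84.7% of the vascular and 97.6% of the Gja5/Cdkn1a cells, with the other Foxf1 areas counted as outside. In 200 µm squares with at least 20 cells, the richest 43 of 860 squares held 82.4% of Myh11 counts, 45.1% of Acta2, 44.4% of Pdlim3 and 30.5% of Gucy1a1.

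Within the Foxf1/Gata4 area, Myh11 and Acta2 formed a layer set off from Spint2-marked cells. Spint2, an epithelial protease inhibitor, was the single epithelial marker in the panel of 6 listed. Distance was taken to the nearest cell of the whole section with at least 3 Spint2 counts, and 487 such cells lay inside the area. Myh11 stood at 6095 CPM within 20 µm of such a cell, 14473 at 20 to 40 µm, 37241 at 40 to 60 µm and 62258 at 60 to 80 µm. It was highest, at 66083 CPM, at 80 to 100 µm, stood at 36719 CPM at 100 to 150 µm and at 1814 CPM at 150 to 200 µm. Acta2 followed the same course, from 3817 CPM through 24054 to 488.5 CPM. Pdlim3 was nearly level from 0 to 150 µm, at 7017 to 9305 CPM, and Gucy1a1 stayed between 6402 and 9434 CPM over the same range. Foxf1, by contrast, was highest within 20 µm (11268 CPM) and 6451 CPM at 100 to 150 µm.

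The Foxf1/Gata5 area had the reverse order. The area held 552 Spint2-marked cells, and distance was again taken to the nearest one in the whole section. Myh11 was highest within 20 µm, at 28497 CPM, and stood at 7560, 1607, 1091, 702.1 and 543.2 CPM in the bins that followed out to 150 µm. Acta2 declined less, from 10725 to 2590 CPM. Gucy1a1 peaked at 20 to 40 µm, at 14026 CPM against 6785 CPM within 20 µm, so its maximum lay farther out than that of Myh11. Pdlim3 stood at 1944 CPM within 20 µm and was highest at 80 to 100 µm, at 4722 CPM.

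**Figure D4:**
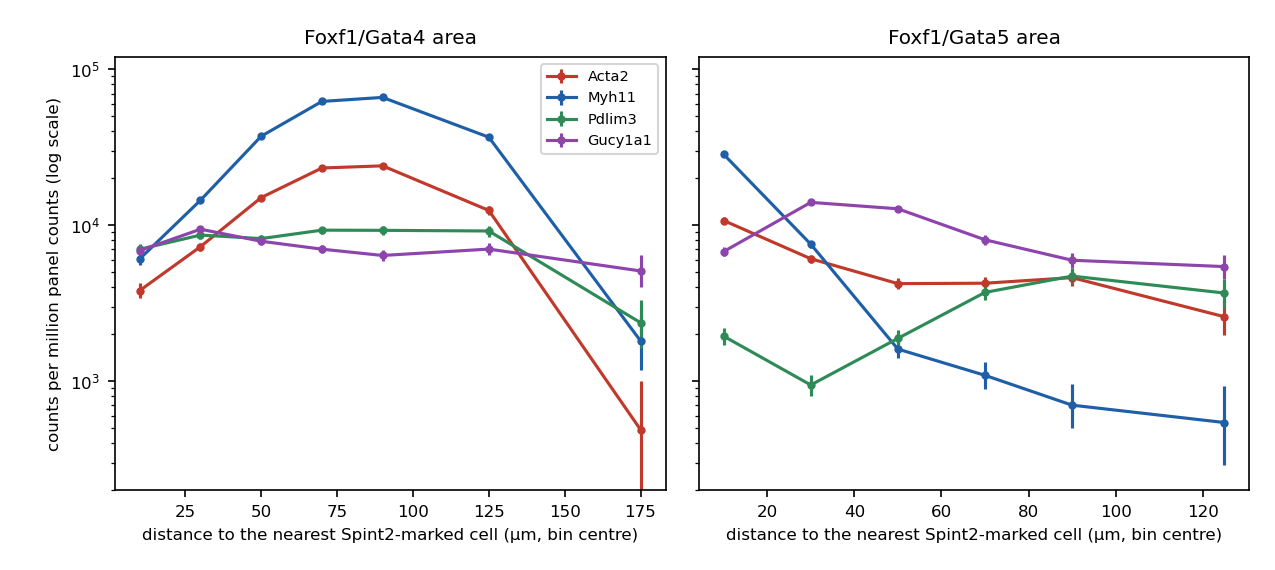
Level of each gene (CPM, log axis) against the distance to the nearest Spint2-marked cell (µm) in the 2 Foxf1 areas; bars are 95% Poisson intervals. Myh11 climbs from 6095 to 66083 CPM away from the marked cells on the left and drops from 28497 to 543.2 CPM on the right.

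The cells richest in Myh11, with at least 10 counts, numbered 826. Of these 621 lay in the Foxf1/Gata4 area, 142 in the Foxf1/Gata5 area, 0 in the heart area and 63 elsewhere, which takes in the other Foxf1 areas. The 3 groups carried different partners. In the Foxf1/Gata4 area Pdlim3 was at 17424 CPM and Hand2 at 8643 CPM. In the Foxf1/Gata5 area Eln was at 22933, Ednra at 11154 and Lox at 10859 CPM, with Pdlim3 at 5669 CPM. Elsewhere the Myh11-rich cells had the genes of vessel walls, with Eln at 38045, Heyl at 27211, Rgs5 at 23388 and the Notch ligand Jag1 at 20584 CPM, Gucy1a1 at 9941 CPM and Pdlim3 at 2740 CPM. Heyl was at 1890 CPM and Rgs5 at 2752 CPM in the Myh11-rich cells of the Foxf1/Gata4 area. Acta2 came with Myh11 in each group: 94.4%, 87.3% and 81.0% of these cells held at least 3 Acta2 counts.

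The sources also differed in how near they lay to endothelium. The median distance to a cell with at least 4 endothelial marker counts was 35.9 µm over all kept cells, 11.6 µm for the vascular subcluster and 13.0 µm for the Gata5/Foxf1 subcluster. It was 25.7 µm for the heart-like cells, 30.9 µm for the Gja5/Cdkn1a cluster and 37.4 µm for the Foxf1/Gata4 subcluster. Endothelial genes were among those used for clustering, so these distances are partly set by how the sources were drawn. Cells with 4 or more endothelial counts made up 34.8% of the vascular and 28.7% of the Gata5/Foxf1 subcluster. The share was 8.1% in the heart-like, 1.17% in the Gja5/Cdkn1a and 1.58% in the Foxf1/Gata4 cells. Cells with at least 3 Gucy1a1 counts lay at a median of 18.6 µm, against 26.2 µm for Myh11, 29.7 µm for Acta2 and 30.1 µm for Pdlim3. Of these Gucy1a1 cells 20.1% carried 4 or more endothelial counts themselves, against 4.77% of all kept cells. Counts can cross the drawn border between touching cells, and the part of this in the values was not tested.

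In the same cell, Acta2 and Pdlim3 were found together 4.63 times as often at E15.5 as the product of their shares (9746 cells), and 5.27 times in E9.5 section 2 (380 cells). At E15.5 Acta2 and Myh11 followed at 3.55, Myh11 and Pdlim3 at 2.56, Myh11 and Gucy1a1 at 2.44, Acta2 and Gucy1a1 at 1.67 and Pdlim3 and Gucy1a1 at 1.39. In E9.5 section 2 the pairs with Gucy1a1 stood at 3.27 for Pdlim3, 2.97 for Acta2 and 1.87 for Myh11. In E9.5 section 1 no pair was seen in more than 7 cells. Within a source Acta2 and Pdlim3 stood at 1.02 in the E9.5 heart-like cells, and at 1.07, 1.23, 1.29, 1.40 and 1.81 in the Foxf1/Gata4, heart-like, Gja5/Cdkn1a, vascular and Gata5/Foxf1 cells. The ratio is bounded near 1 where a gene is in nearly every cell, as Acta2 was in 374 of the 385 E9.5 heart-like cells and 455 of the 505 Foxf1/Gata4 cells. It cannot pass 2 for a pair where either gene is in most cells of the source. Myh11 and Pdlim3 stood at 2.36 in the Gata5/Foxf1 cells. When cells were thinned to 50 counts, Acta2 with Myh11 (4.73) passed Acta2 with Pdlim3 (4.36) at E15.5, Pdlim3 and Gucy1a1 stood at 0.951 at E15.5, and Myh11 and Gucy1a1 at 0.434 in E9.5 section 2, on 3 cells with both.

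With 3 counts as the line, 12817 cells of the E15.5 section were rich in at least 1 of the 4 genes. Gucy1a1 alone made up 26.4% of them, Pdlim3 alone 23.9%, Acta2 alone 16.7% and Acta2 with Pdlim3 16.5%. Acta2 with Myh11 and neither other gene made up 4.26%, Myh11 alone 4.40%, and 92 cells (0.718%) were rich in all 4. In E9.5 section 2, 572 cells were rich in at least 1, 58.4% in Acta2 alone and 11.4% in Acta2 with Pdlim3.

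**Figure D5:**
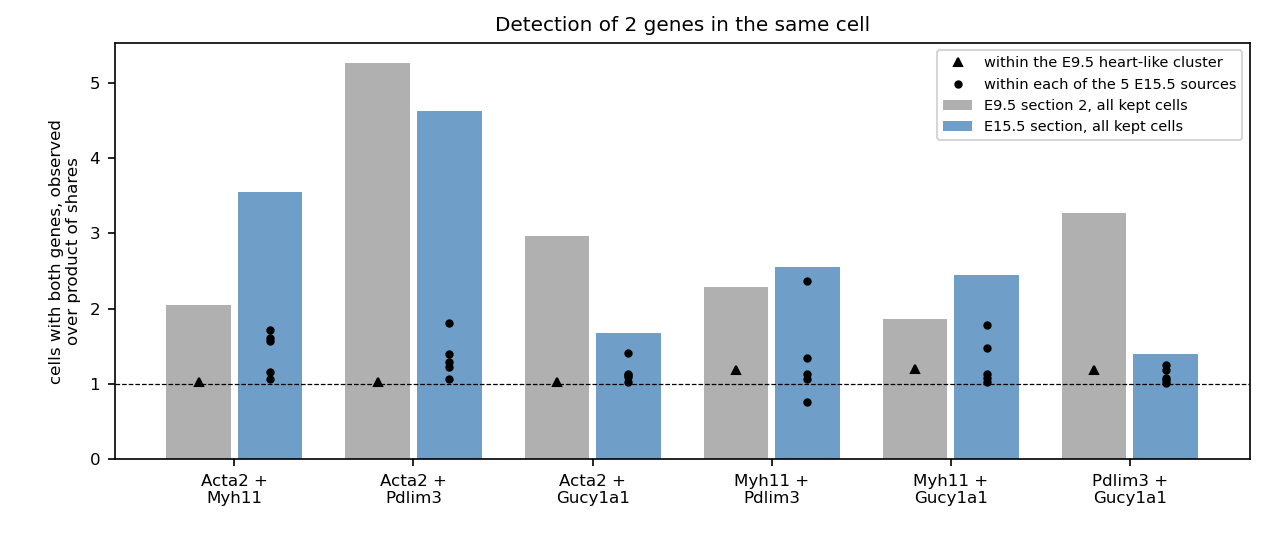
Number of cells with both genes of a pair over the product of their shares; bars are all kept cells of a section, the triangle the E9.5 heart-like cluster, dots the 5 E15.5 sources, and the dashed line marks 1. Acta2 with Pdlim3 has the tallest bars, 5.27 and 4.63, while the triangles and all but 1 dot, Myh11 with Pdlim3 in the Gata5/Foxf1 subcluster at 2.36, lie under 2. A pair cannot pass 2 where either gene is in most of the cells.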

How the data were processed

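The authors deposited, per section, whole-number counts of each panel gene in each segmented cell, and a second table with each cell's centre, read here as µm. Cell volume, a signal that is never negative, came from the outlined cells, per the file headers. The submitters' processing notes name Scanpy and Seurat, and how cells were outlined and barcodes decoded is not given in the sources used here. All lists, like the 4 genes, were chosen with earlier results of these data known.

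Cells with at least 10 panel counts were kept and blank codes stayed out of totals. Cells were clustered without the 4 genes (30 principal components, 15 nearest neighbours, Leiden at a resolution of 1, igraph 0.11.9, leidenalg 0.10.2), the E9.5 sections together, and 4 E15.5 clusters were clustered again at 0.5. A class name needed at least 3 of its markers at 2-fold or more on at least 20 counts, 2 of them among the top 10 genes by fold; leading genes that went against it left the cluster unnamed. No doublet caller was run; cells over 3 times the median volume were left out as an alternative. A gene was called raised at 2-fold over the other cells on at least 50 counts. All 4 genes were named throughout; like-patterned genes were the 3 with the highest r, and leading genes the 5 highest folds.

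Section sums were tested with edgeR 4.0.16 (quasi-likelihood, TMM, summed count of at least 30, adjusted p below 0.05) and with DESeq2 1.42.0. The test rests on 1 residual degree of freedom, and imaging run was not modelled. Tested on simulated data, the script recovered log2 changes of 3 far more often than of 1. Alternatives covered scaling, test, filters, thinning, volume, cluster resolution, marker gates and leaving out each E9.5 section.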

Additional observations from a re-analysis of the deposited data

How the results depend on the processing

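No paired analysis was possible because the stages share fewer than 2 replicate numbers. The number of panel genes called by edgeR was 44; it was 27 with upper-quartile factors, 11 per cell volume, 22 without E9.5 areas of low Gnas and 92 with DESeq2, which also called Myh11 (log2 difference 1.777). Leaving out each E9.5 section moved the log2 difference of Acta2 from -1.58 to 1.90, of Myh11 from 1.54 to 1.86, of Pdlim3 from 1.07 to 5.06 and of Gucy1a1 from 0.78 to 1.14, and the genes past 2-fold from 93 to 137 and 149. Marker gates gave other counts of raised genes. Those on markers in the cell caught 49.4% of the vascular, 20.6% of the Foxf1/Gata4, 23.1% of the Gata5/Foxf1, 48.2% of the heart-like and 3.64% of the E9.5 heart-like cells and 1 of the 16401 Gja5/Cdkn1a cells. With a gate on markers in the cell the count was 1 in place of 3, 4, 3, 2 and 2 in the vascular, Foxf1/Gata4, Gata5/Foxf1, Gja5/Cdkn1a and heart-like sources, and 0 in place of 3 at E9.5. With a gate on neighbours within 30 µm it was 0, 0, 0 and 1 in the vascular, both Foxf1-rich and heart-like sources, and 0 at E9.5; per cell volume the heart-like count was 1.

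Most cells of each marker gate lay outside the source it was set for, so the gate folds mostly describe other cells. Folds that crossed 1 with the gate in the cell were Pdlim3 0.684 (Foxf1/Gata4), Myh11 6.06 and Gucy1a1 2.08 (Gja5/Cdkn1a), Myh11 2.08 and Pdlim3 0.94 (heart-like), and Myh11 0.307 and Pdlim3 0.432 (E9.5). The Gja5/Cdkn1a gate held 17 cells, 1 of them from the cluster. With the gate on neighbours the folds that crossed 1 were Acta2 0.774 and Myh11 0.976 (vascular), Acta2 0.423 and Myh11 0.813 (both Foxf1-rich sources), Pdlim3 0.394 (Foxf1/Gata4), Myh11 3.19 and Gucy1a1 1.596 (Gja5/Cdkn1a), Myh11 2.15 (heart-like), and Acta2 0.774, Myh11 0.609 and Pdlim3 0.639 (E9.5). The neighbour gates shared 129 of 1499 vascular, 29 of 505 Foxf1/Gata4, 293 of 3010 Gata5/Foxf1 and 474 of 16401 Gja5/Cdkn1a cells. They shared 2404 of 3037 heart-like and 4 of 385 E9.5 heart-like cells. At a resolution of 0.5 the vascular, both Foxf1-rich and heart-like sources merged into 1 cluster of 17886 cells, with Myh11 at 15.98 and Pdlim3 at 0.929. The count of 5 pairs past 2 in E9.5 section 2 was 3 after thinning and 0 within the heart-like cells. Acta2, Pdlim3 and Gucy1a1 were in 97.1%, 63.4% and 61.0% of those cells, so no pair there could pass 2. The 4 pairs at E15.5 were 1 within the Gata5/Foxf1 subcluster and 0 within the other 4 sources. A pair could not pass 2 where either gene was in most cells. This held for all pairs in the Foxf1/Gata4 subcluster (shares of 60.6% to 92.1%). In the Gja5/Cdkn1a cluster it held for pairs with Acta2 (58.0%) or Pdlim3 (56.4%). In the vascular and Gata5/Foxf1 cells it held for pairs with Gucy1a1 (65.4% and 67.1%), so part of these counts was fixed by the shares. Myh11 with Gucy1a1 at E9.5 (0.434) and Pdlim3 with Gucy1a1 at E15.5 (0.951) crossed 1 after thinning, as did Myh11 with Pdlim3 within the heart-like subcluster (0.754). The causes were not tested. The edgeR count was 31 less the mean blank code, 38 with total panel counts alone and 39 in cells with 30 or more counts. With 3 or more counts as the line, 3 of the 4 genes in place of 2 had their highest share of cells at E15.5, and Myh11 was the addition. The cells without endothelial counts, the areas and the finer second clustering were chosen after seeing the data. E9.5 section 1, with 68572 counts, limits what could be read from that stage.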
